A study of Macaca fascicularis with 44 samples.

Results

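Extraembryonic Mesoderm, here ExM, and extraembryonic mesenchyme, EXMC, were the 2 classes of extraembryonic mesodermal tissue that the authors named in cultured cynomolgus monkey embryos, and both were compared inside the same libraries. Counts were summed per library and class, and a library entered when it held at least 10 cells of each class by the authors' annotation and its labels agreed on the day. This left 9 of 44 libraries, with 323 EXMC and 155 ExM cells, together 478 of 3682 cells. The whole series holds 1185 EXMC and 474 ExM cells.

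All 9 libraries were total RNA of wild type Macaca fascicularis embryos made by sperm injection and grown in vitro past the blastocyst stage, with no other treatment given in the labels. After extraembryonic tissue had been dissected away, the inner bodies were dissociated with TrypLE and single cells were processed. There was 1 library of day E18, 3 of E20 and 5 of E21, and by the annotation each of these days is 1 embryo (male at E18 and E21, female at E20). Library 26, whose title and time label name different days, was left out and enters only as an alternative.

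Extraembryonic mesoderm lines the yolk sac, amnion and chorion of primates and forms the connecting stalk, from which the umbilical vessels arise. It appears early in primate development, before the streak-derived mesoderm has spread, and lays down a loose matrix rich in collagens and proteoglycans. Its surfaces facing the extraembryonic cavity carry a flat mesothelium, and its inner parts give rise to vessels, blood islands and fibroblast-like stroma.

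The sums held 2565053 to 11715830 counts per library in EXMC and 1154650 to 5549842 in ExM. The median total per cell showed no difference past the threshold: 72580.5 to 181103 counts in EXMC and 56496 to 158390 in ExM, with a mean log2 ratio of -0.02 (exact two-sided paired permutation test over 9 libraries, p = 0.895, where the smallest possible p is 0.00391). ExM cells had 136 fewer genes detected by the library medians (exact p = 0.414), and 22.4 more once each cell was thinned to 5000 counts (exact p = 0.5). The ribosomal protein share was higher in ExM in 8 of 9 libraries (8.13 ± 1.63% against 9.17 ± 1.84%, SD, n = 9, exact permutation p = 0.0313, adjusted p = 0.188 over 6 tests), and the mitochondrial share was 6.50 ± 2.21% in EXMC and 5.34 ± 1.59% in ExM (exact p = 0.109).

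Of 21834 genes, 9465 passed the filter on low counts and were tested with the library as a block by edgeR's quasi-likelihood test, and a gene was called where its Benjamini-Hochberg adjusted p was under 0.05. Of these, 294 were higher in ExM (3.11% of the genes tested) and 415 were higher in EXMC (4.38%), together 7.49%. Scaling by total counts alone, which shifts the median log2 difference over all genes from -0.02 to 0.04, gave 364 and 339, so the share of calls higher in ExM went from 41.5% to 51.8%. Of the 709 called genes, 456 differed in the same direction in all 9 libraries. Over all genes tested, 3.29% were higher in ExM in every library and 2.98% were lower in every library. The values of the classes did not overlap over libraries in 73 genes (0.771% of those tested), of which 72 were called. A gene near 0 in 1 class passed the filter only through the other class, so the list counts and medians given here describe the tested members and support no statement about a whole list.

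Both classes are unions of whole fine clusters that the authors built from the same expression values. The p-values therefore describe how evenly a difference ran through libraries, and are no independent evidence that the classes differ. Libraries of 1 day share an embryo and count as independent in the fit: with counts summed per embryo, 70 genes were called higher in ExM and 85 higher in EXMC. Without the 5 libraries of E21 the calls were 65 and 61. No called gene was called in the opposite direction under any alternative.

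The leading genes on the ExM side included the water channel gene AQP1, the cadherin gene CDH3 and the guidance ligand gene SLIT2. PCP4L1, a relative of the calmodulin-binding peptide PCP4, measured 0.695 to 12.5 CPM (counts per 1000000 counts of the class sum; median 1.68) in EXMC and 25.8 to 184 CPM (median 65.0) in ExM, a log2 difference of 4.68 ± 0.40 (SE; adjusted p = 1.37e-06). AQP1, a water channel of vessels and mesothelium, measured 0 to 12.5 CPM (median 8.07) in EXMC and 22.1 to 251 CPM (median 134) in ExM (log2 4.32 ± 0.48, adjusted p = 3.86e-05). In both genes every ExM value lay above every EXMC value.

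CDH3, the cell adhesion molecule P-cadherin, measured 0.927 to 21.9 CPM (median 8.88) in EXMC and 50.5 to 128 CPM (median 90.6) in ExM (log2 3.52 ± 0.47, adjusted p = 0.000117). SLC9A3R1, a scaffold protein that anchors membrane transporters to ezrin, measured 2.34 to 34.6 CPM against 71.0 to 221 CPM (log2 3.38 ± 0.40, adjusted p = 6.62e-05). The values of the classes did not overlap in either gene, nor in SLIT2, CXCL12, COL11A1 and MGARP among the 15 leading genes on this side. The other members of the 15 overlapped in at least 1 library: FYB2, CYP1B1, TACR1, ZFHX4, CXADR, PODXL and BEND5, with log2 differences from 3.27 ± 0.49 (BEND5) to 4.16 ± 0.68 (FYB2). Of the 30 leading genes of both sides, PCP4L1, AQP1, CYP1B1, SLIT2, TACR1, CDH3 and SLC9A3R1 (ExM) and NUPR1, EMILIN2 and SPON2 (EXMC) kept the call in all 26 alternatives. CYP1B1 is a retinoid and steroid oxidising enzyme, TACR1 the receptor of substance P, ZFHX4 a zinc finger and homeodomain factor and CXADR a tight junction protein.

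**Figure D1:**
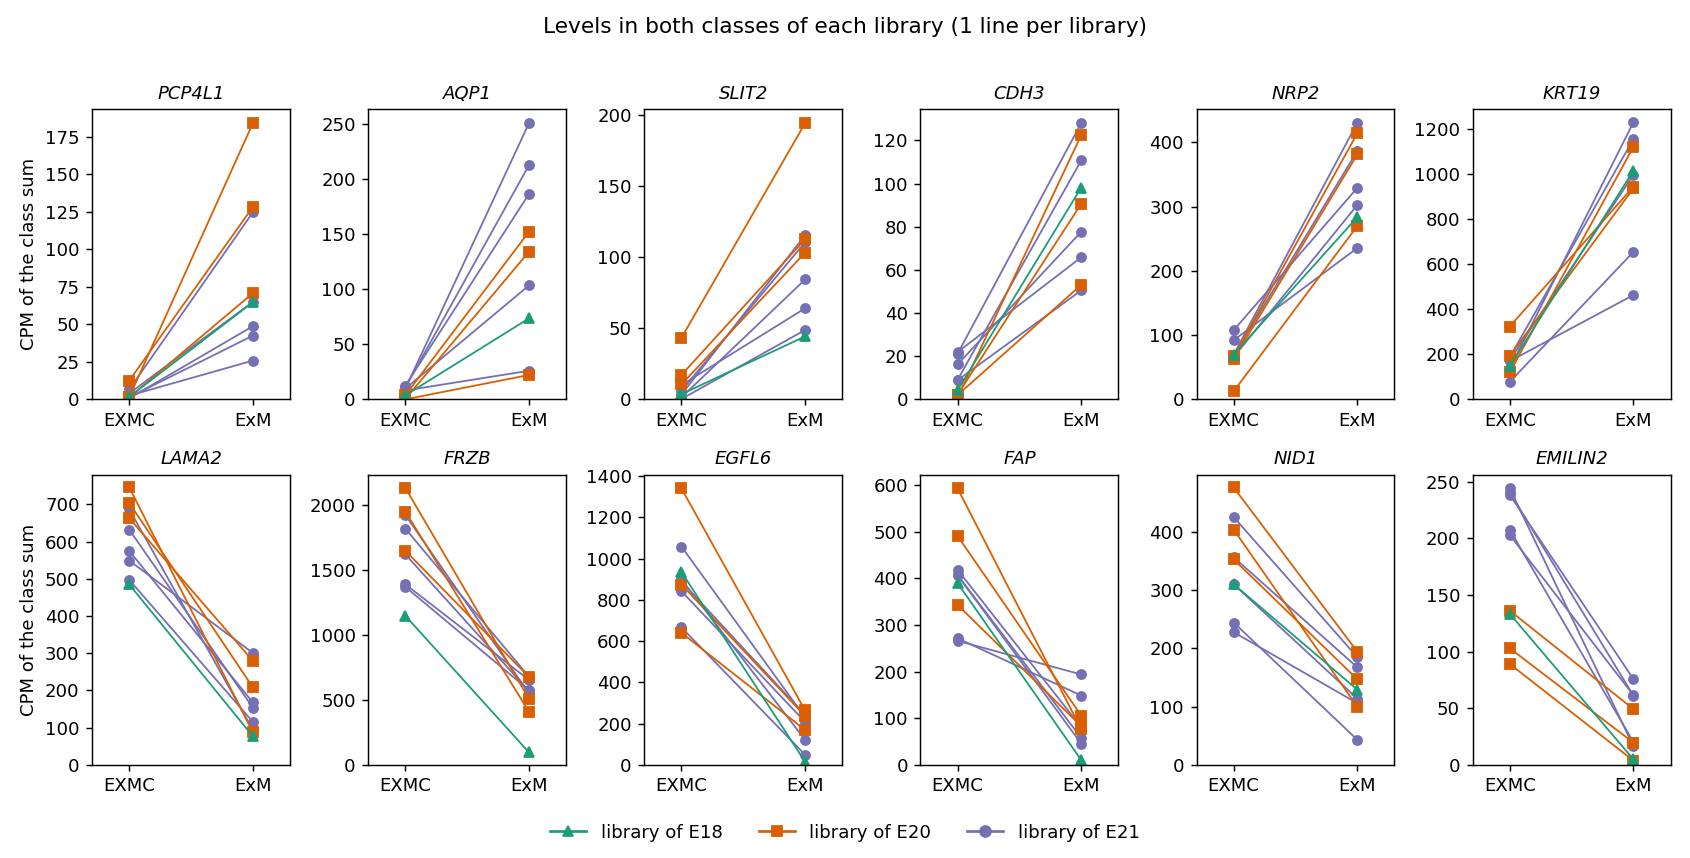
Levels (CPM of the class sum, linear axes from 0) of 6 genes higher in ExM (upper row) and 6 higher in EXMC (lower row), each line joining both classes of 1 library, coloured by day. Every line goes up in the upper row and down in the lower row, and in these 12 genes no ExM value lies between the lowest and highest EXMC value.

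The leading genes on the EXMC side included the matrix genes EGFL6 and EMILIN2, the adhesion gene VCAM1 and the steroid enzyme gene HSD17B2. EGFL6, a secreted matrix protein with epidermal growth factor repeats, measured 640 to 1340 CPM (median 889) in EXMC and 14.3 to 263 CPM (median 208) in ExM (log2 -2.70 ± 0.41, adjusted p = 0.00351). FAP, a serine protease of the surface of activated fibroblasts, measured 266 to 593 CPM (median 407) against 10.2 to 194 CPM (median 80.5), with log2 -2.44 ± 0.41 and adjusted p = 0.00405. EMILIN2, an elastic fibre glycoprotein, measured 89.0 to 244 CPM (median 203) against 3.66 to 75.8 CPM (median 19.99), with log2 -2.79 ± 0.33 and adjusted p = 4.58e-05. The classes did not overlap in these 3 genes.

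VCAM1, an adhesion molecule of the allantois and chorion, was also apart in all libraries, at 72.5 to 185 CPM (median 98.1) in EXMC and 2.28 to 46.9 CPM (median 22.3) in ExM (log2 -2.46 ± 0.39, adjusted p = 0.000562). IGFBP6, which binds insulin-like growth factor 2, did not overlap either (27.1 to 96.8 CPM against 0 to 15.97 CPM, log2 -2.95 ± 0.58, adjusted p = 0.00312). The steroid enzyme gene HSD17B2 had the largest log2 difference among the 15 leading genes on this side, -3.59 ± 0.69 (adjusted p = 0.0136), at 140 to 406 CPM in EXMC and 3.66 to 149 CPM in ExM, which overlapped. In the pooled cells of these libraries HSD17B2 stood higher still in extravillous trophoblast (EVT), at 785 CPM, against 298 CPM in EXMC.

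FGL2, ASPN, DKK1, NUPR1, TNFAIP6, SLC16A14, GLIPR1, SPON2 and GTSF1 complete the 15, each lower in ExM in all 9 libraries and each with overlapping values. Their log2 differences ran from -2.45 ± 0.58 (GTSF1) to -3.53 ± 0.47 (FGL2). ASPN is a small proteoglycan, TNFAIP6 a hyaluronan-binding protein, NUPR1 a stress-response nuclear protein and SPON2 a secreted matrix protein. DKK1, a secreted WNT antagonist, measured 124 to 555 CPM in EXMC and 0 to 232 CPM in ExM (adjusted p = 0.0243), and its call was lost without library 19 (adjusted p = 0.0505) or library 24 (0.0553).

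The 15 leading genes of each side were then followed through libraries that the contrast did not use, which held 5 to 9 cells of 1 of the classes or had conflicting day labels. In library 26, assigned to the E21 embryo by the annotation, 15 of 15 ExM genes and 14 of 15 EXMC genes had the direction of the contrast. In E20 library 37 and E18 library 43 it was 15 of 15 on either side, and in E18 library 42 it was 14 of 15 ExM genes and 15 of 15 EXMC genes. In E20 library 39, with 8 EXMC and 11 ExM cells, it was 15 of 15 and 10 of 15, and in E25 library 15, with 7 ExM cells, 13 of 15 and 13 of 15. Over all 709 called genes the share with the same direction ran from 72.5% (library 39) to 93.8% (library 26). Except for library 15, these libraries come from embryos already in the contrast. Their cells were also classed by the authors' clusters, built on the same expression values. The shared direction is therefore a description and no independent support.

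The matrix genes leaned to EXMC. Of 14 collagens tested (19 in the table), 8 were higher in EXMC (4.38% over all genes tested), 2 were higher in ExM (3.11%) and 4 did not pass. Their median log2 difference was -0.76 against -0.02 over all genes tested. COL3A1, the fibrillar collagen of loose connective tissue, measured 12500 to 22749 CPM (median 17432) in EXMC and 6776 to 12689 CPM (median 10672) in ExM (log2 -0.82 ± 0.12, adjusted p = 0.000194). COL1A1, the main chain of type I collagen, measured 4521 to 11335 CPM against 2157 to 4832 CPM and was lower in ExM in 8 of 9 libraries (log2 -1.16 ± 0.18, adjusted p = 0.000863). At E20 alone COL1A1 measured 4521 to 5428 CPM in EXMC and 3632 to 4609 CPM in ExM. The collagen median was -0.13 at E20 and -0.94 at E21. COL1A2 and COL11A1 were called where the class difference was compared between these days. Without the E21 libraries, in a fit of fewer libraries, COL1A1, COL3A1 and COL4A1 lost the call.

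The basement membrane collagen COL4A1 was also higher in EXMC (395 to 1228 CPM against 116 to 476 CPM, log2 -1.23 ± 0.18, adjusted p = 0.000207), as were COL1A2, COL4A2, COL6A1, COL6A2 and COL6A3. The collagens higher in ExM were COL11A1 and COL21A1. COL11A1, a fibril-regulating collagen known from cartilage, measured 0 to 24.1 CPM (median 9.56) in EXMC and 47.0 to 115 CPM (median 71.6) in ExM, without overlap (log2 3.41 ± 0.74, adjusted p = 0.0133). COL21A1, a fibril-associated collagen, measured 36.4 to 330 CPM (median 48.8) against 137 to 596 CPM (median 364), with log2 1.85 ± 0.27 and adjusted p = 0.000486.

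Matrix glycoproteins followed the same order, with 9 of 22 tested members higher in EXMC (4.38% over all genes tested), 1 higher in ExM (3.11%) and 12 not passing. Their median was -0.54. NID1, which links laminin to type IV collagen, did not overlap (228 to 476 CPM in EXMC, 42.9 to 194 CPM in ExM, log2 -1.51 ± 0.15, adjusted p = 3.52e-06). CCN2, a matricellular protein that responds to mechanical and TGF-beta signals, measured 362 to 6139 CPM (median 644) against 126 to 2529 CPM (median 359) and was lower in ExM in all 9 libraries (log2 -1.61 ± 0.19, adjusted p = 5.16e-05). THBS1 (thrombospondin 1), VCAN (versican), FN1 (fibronectin), SPARC, NID2, CCN1 and FBLN2 were called on the same side, with log2 differences from -0.51 (FN1) to -1.59 (THBS1).

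The member on the ExM side was POSTN, periostin, a matricellular protein of fibroblasts and cardiac cushions. It measured 147 to 547 CPM (median 382) in EXMC and 691 to 5570 CPM (median 2079) in ExM, with no overlap and a log2 difference of 2.64 ± 0.51 (adjusted p = 0.0137). POSTN had been placed among the 6 EXMC markers. Of those 6, COL1A1, COL3A1, COL6A3 and DCN were higher in EXMC and LUM did not pass (log2 0.09, adjusted p = 0.758), so POSTN went against its list. The 6 summed to 30851 to 48358 CPM in EXMC and 19719 to 38015 CPM in ExM, higher in EXMC in 7 of 9 libraries. Of the 6 ExM markers, HAND1 alone was called, and BMP4, FOXF1, GATA6, HAND2 and TBX20 did not pass (log2 from -0.24 to 0.71). Their sum was 189 to 439 CPM in EXMC and 387 to 691 CPM in ExM, higher in ExM in 9 of 9 libraries. HAND1 is part of that sum, and in libraries 35 and 36 it rose by more than the sum did. In library 36 the sum went from 315 to 387 CPM and HAND1 from 23.8 to 168 CPM. The other markers together were thus lower in ExM in these libraries, and higher in the rest. Both classes carried transcripts of both marker lists.

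Laminin chains were split. LAMA2, the alpha chain of muscle and stromal basement membranes, measured 485 to 746 CPM (median 632) in EXMC and 76.3 to 300 CPM (median 153) in ExM (log2 -2.10 ± 0.19, adjusted p = 2.42e-06). LAMA1, the alpha chain of early embryonic basement membranes, measured 0.780 to 24.2 CPM (median 10.2) against 24.2 to 129 CPM (median 66.8), with a log2 difference of 2.797 ± 0.39 and adjusted p = 0.000121. Neither gene overlapped, so the alpha chains stood in opposite order. The beta chains LAMB1 (log2 -0.79) and LAMB2 (log2 -1.21 ± 0.28, adjusted p = 0.0103) were higher in EXMC and LAMC1 did not pass (log2 -0.30, adjusted p = 0.386). LAMA4, the vascular alpha chain, was called higher in ExM (log2 2.04 ± 0.56, adjusted p = 0.0285), a call lost without library 19, 23, 24, 25, 35 or 41 (adjusted p = 0.0616 to 0.0950).

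Among 7 matrix proteases and inhibitors tested, TIMP3, TIMP1 and MMP14 were higher in EXMC (4.38% over all genes tested) and 4 did not pass. The MMP14 call (adjusted p = 0.0437) was lost on leaving out any library but 23 or 25 (0.0622 to 0.121). TIMP3, a matrix-bound metalloprotease inhibitor, measured 184 to 815 CPM (median 304) in EXMC and 29.3 to 205 CPM (median 78.5) in ExM (log2 -2.06 ± 0.21, adjusted p = 5.63e-06). Of 5 small leucine-rich proteoglycans tested, ASPN and the decorin gene DCN were higher in EXMC and none was higher in ExM. DCN measured 6211 to 9110 CPM against 1843 to 5722 CPM without overlap (log2 -0.86 ± 0.15, adjusted p = 0.00104).

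Contractile genes of smooth muscle had 3 of 12 tested members higher in EXMC (4.38% over all genes tested), 1 higher in ExM (3.11%) and 8 not passing. Their median was -0.97. TAGLN, transgelin, measured 515 to 1637 CPM (median 859) in EXMC and 147 to 755 CPM (median 398) in ExM (log2 -1.18 ± 0.23, adjusted p = 0.00557). CNN1, calponin, measured 2.73 to 65.8 CPM against 0 to 33.6 CPM (log2 -2.01 ± 0.49, adjusted p = 0.0136). ACTG2, smooth muscle gamma actin, ranged from 0.628 to 535 CPM in EXMC, and its call (adjusted p = 0.0439) was lost on leaving out any library but 35 (0.0608 to 0.107). TPM1 was called higher in ExM by a small amount (log2 0.52 ± 0.15, adjusted p = 0.0370), lost without library 18, 19, 24, 25, 34, 35 or 36 (0.0524 to 0.112).

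The contractile levels were uneven among the authors' EXMC clusters. In pooled cells CNN1 stood at 269 CPM in cluster 6 (12 cells) and 89.4 CPM in cluster 10 (64 cells), against 1.13 to 6.37 CPM in the other 5 EXMC clusters and 2.14 to 28.4 CPM in the 3 ExM clusters. TAGLN stood at 2228 and 2050 CPM in clusters 6 and 10, against 173 to 599 CPM in the other EXMC clusters and 272 to 728 CPM in the ExM clusters. ExM cluster 8 thus lay above 5 of the 7 EXMC clusters in both genes.

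**Figure D2:**
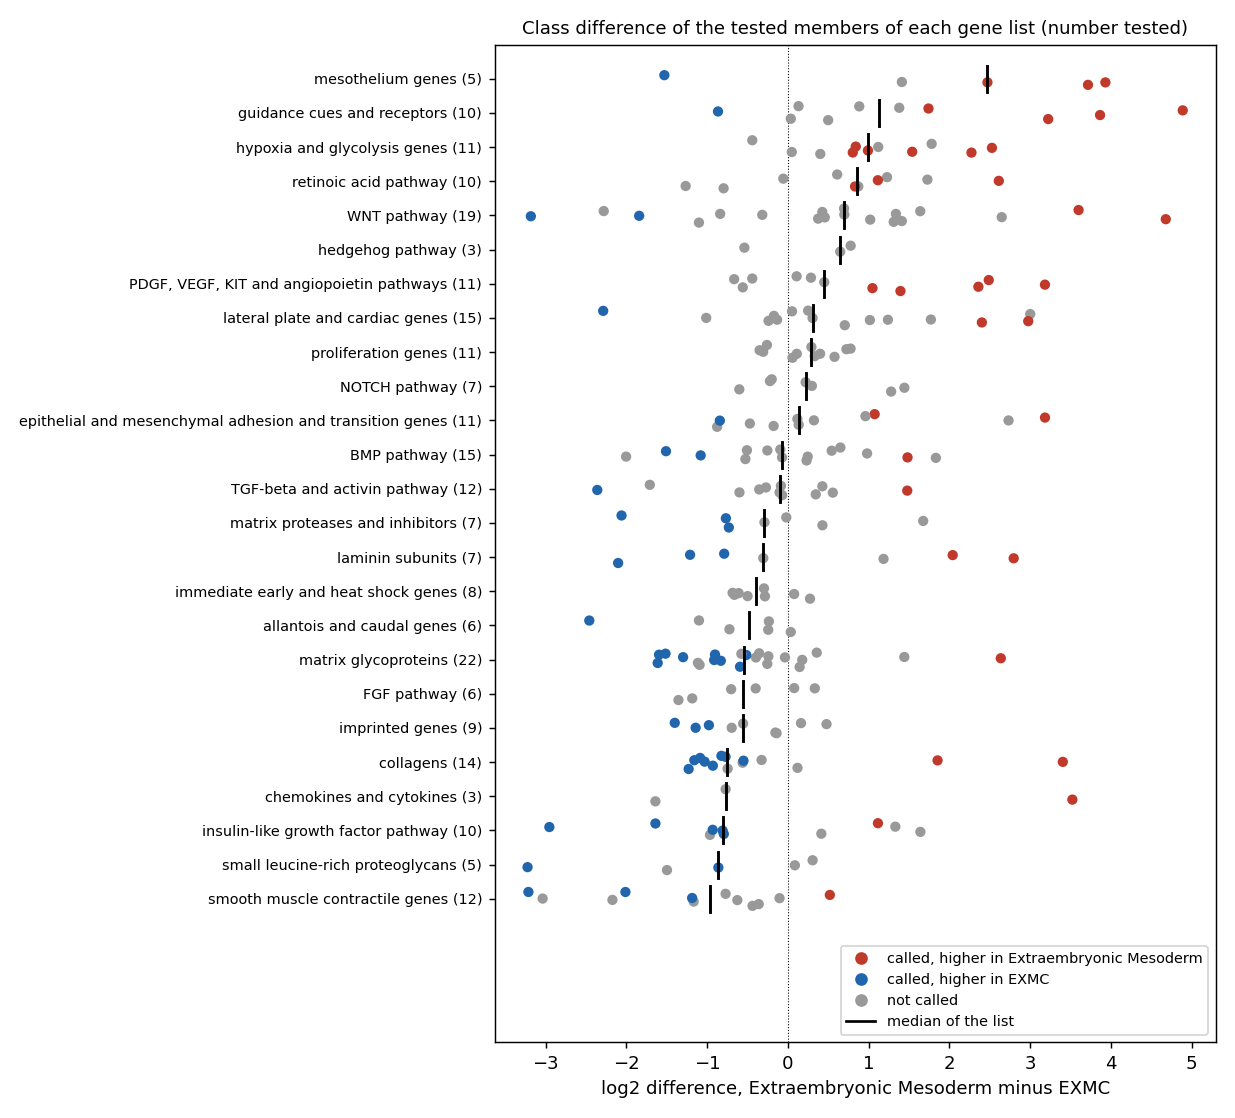
Log2 difference (ExM minus EXMC) of each tested member of 25 functional gene lists, ordered by list median (black bar), red and blue for members called higher in ExM and in EXMC, grey for members not called. Mesothelium, guidance and glycolysis lists sit to the right of 0, and collagens, proteoglycans and contractile genes to the left.

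Mesothelium genes, which mark the flat epithelium of body cavities, had the highest median, 2.47, over 5 tested members of 11 in the table. The listed mesothelial genes MSLN, WT1, UPK1B, UPK3B, CALB2 and ITLN1 were not among those tested, so the median does not cover them. KRT19, an epithelial keratin, measured 77.4 to 323 CPM (median 169) in EXMC and 462 to 1228 CPM (median 995) in ExM (log2 2.47 ± 0.21, adjusted p = 2.48e-06). BNC1, a zinc finger factor of mesothelial cells, measured 0 to 5.63 CPM (median 2.24) against 13.6 to 79.1 CPM (median 40.4), with log2 3.93 ± 0.54 and adjusted p = 0.000107. Neither gene overlapped.

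PODXL, the sialomucin podocalyxin of mesothelial and endothelial surfaces, was called as well, at 0 to 20.6 CPM against 15.5 to 276 CPM (log2 3.72 ± 0.55, adjusted p = 0.000781). TCF21, a factor of mesothelium-derived fibroblasts, went the other way (110 to 340 CPM in EXMC, 25.6 to 141 CPM in ExM, log2 -1.53 ± 0.17, adjusted p = 1.30e-05), and LRRN4 did not pass. KRT19 is also abundant in trophoblast, with 1952 CPM in cytotrophoblast (CTB) of these libraries. The summed level of 12 trophoblast markers was 165 to 508 CPM in EXMC and 181 to 1652 CPM in ExM, higher in ExM in 7 of 9 libraries, against a median of 5518 CPM in trophoblast cells. None of the 5 trophoblast markers tested was called, and the part of these transcripts in the KRT19 difference was not tested.

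Of 15 tested lateral plate and cardiac genes, 2 were higher in ExM, 1 was higher in EXMC and 12 did not pass, where 7.49% of all genes tested were called. Their median was 0.31. HAND1, a basic helix-loop-helix factor of extraembryonic and cardiac mesoderm, measured 6.90 to 107 CPM (median 42.8) in EXMC and 117 to 367 CPM (median 216) in ExM, with no overlap (log2 2.40 ± 0.34, adjusted p = 0.000443). TNNT2, cardiac troponin T, measured 0 to 43.02 CPM (median 15.1) against 27.8 to 204 CPM (median 84.9), with log2 2.98 ± 0.45 and adjusted p = 0.000459. TBX5, a T-box factor of heart and forelimb fields, was higher in EXMC (19.2 to 179 CPM against 0.841 to 38.02 CPM, log2 -2.29 ± 0.42, adjusted p = 0.00165).

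Among 64 transcription factors of the large developmental families tested, edgeR called 3 higher in ExM and 4 higher in EXMC. These shares were near its 3.11% and 4.38% of all genes tested. The median of the factors was 0.04. DESeq2 called 8 and 6 of the 64, with 522 and 634 of all 9465 genes, and limma-voom 9 and 4, with 445 and 507. Besides HAND1, the factors called by edgeR in ExM were TCF4 (log2 1.54 ± 0.31, adjusted p = 0.00376) and the WNT effector TCF7L2 (log2 1.63 ± 0.42, adjusted p = 0.0214), the latter lost without library 23 (0.0571) or 35 (0.0591). Those in EXMC were TBX5, TCF21, KLF6 and SNAI2. SNAI2, a repressor of epithelial genes, measured 162 to 538 CPM against 43.3 to 318 CPM (log2 -0.84 ± 0.20, adjusted p = 0.0106).

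HOX genes, which pattern the trunk by position along their 4 clusters, had called members in ExM. Of 37 counted in the files, 15 were tested. Of these, 5 were higher in ExM (3.11% over all genes tested), none was higher in EXMC (4.38%) and 10 did not pass. The median over the tested members was -0.16. HOXB7 measured 0 to 4.66 CPM (median 0.768) in EXMC and 7.15 to 37.6 CPM (median 30.2) in ExM, without overlap (log2 4.43 ± 0.71, adjusted p = 0.00049). HOXB2 measured 0 to 12.4 CPM (median 0.280) against 3.79 to 43.4 CPM (median 22.5), with log2 4.31 ± 0.87 and adjusted p = 0.00351.

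HOXB3 (log2 4.89 ± 0.81, adjusted p = 0.000625), HOXB6 (log2 3.34 ± 0.88, adjusted p = 0.0248) and HOXC8 (log2 1.89 ± 0.32, adjusted p = 0.000879) were the others called, each higher in ExM in all 9 libraries. The HOXB6 call was lost without library 19, 24, 35 or 41 (adjusted p = 0.0504 to 0.0627). With counts summed per embryo the calls of HOXB2 (adjusted p = 0.188), HOXB3 (0.145) and HOXB6 (0.205) were lost, as they were with at least 20 cells of each class (0.0754, 0.0744 and 0.691), while HOXB7 stayed called in all 26 alternatives. HOXC8 was not followed through the alternatives. The 4 tested HOXB genes had EXMC medians under 1 CPM and passed the filter through ExM, so the number called among them is no finding. Over all members of a cluster, tested or not, a division made after the values were seen, the summed level of the 10 HOXB genes was 0.309 to 40.8 CPM (median 4.71) in EXMC and 31.1 to 171 CPM (median 122) in ExM, higher in ExM in all 9 libraries. The 11 HOXA genes summed to 108 to 236 CPM (median 136) in EXMC and 16.9 to 191 CPM (median 109) in ExM, higher in ExM in 3 libraries.

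HOXB genes under the filter had the same order of medians in HOXB4 (0 against 4.37 CPM), HOXB5 (0.249 against 7.29 CPM), HOXB8 (0.171 against 4.33 CPM) and HOXB9 (0 against 0.866 CPM). HOXB13, the most posterior member of the cluster, had medians of 0.373 and 0 CPM. HOXA10, the most abundant HOX gene in EXMC, measured 35.3 to 184 CPM there and 5.48 to 83.4 CPM in ExM and did not pass (log2 -0.72 ± 0.42, adjusted p = 0.391). Whether reads were counted by strand is not given in the sources used here, so transcripts of overlapping and antisense genes in these clusters cannot be told apart.

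**Figure D3:**
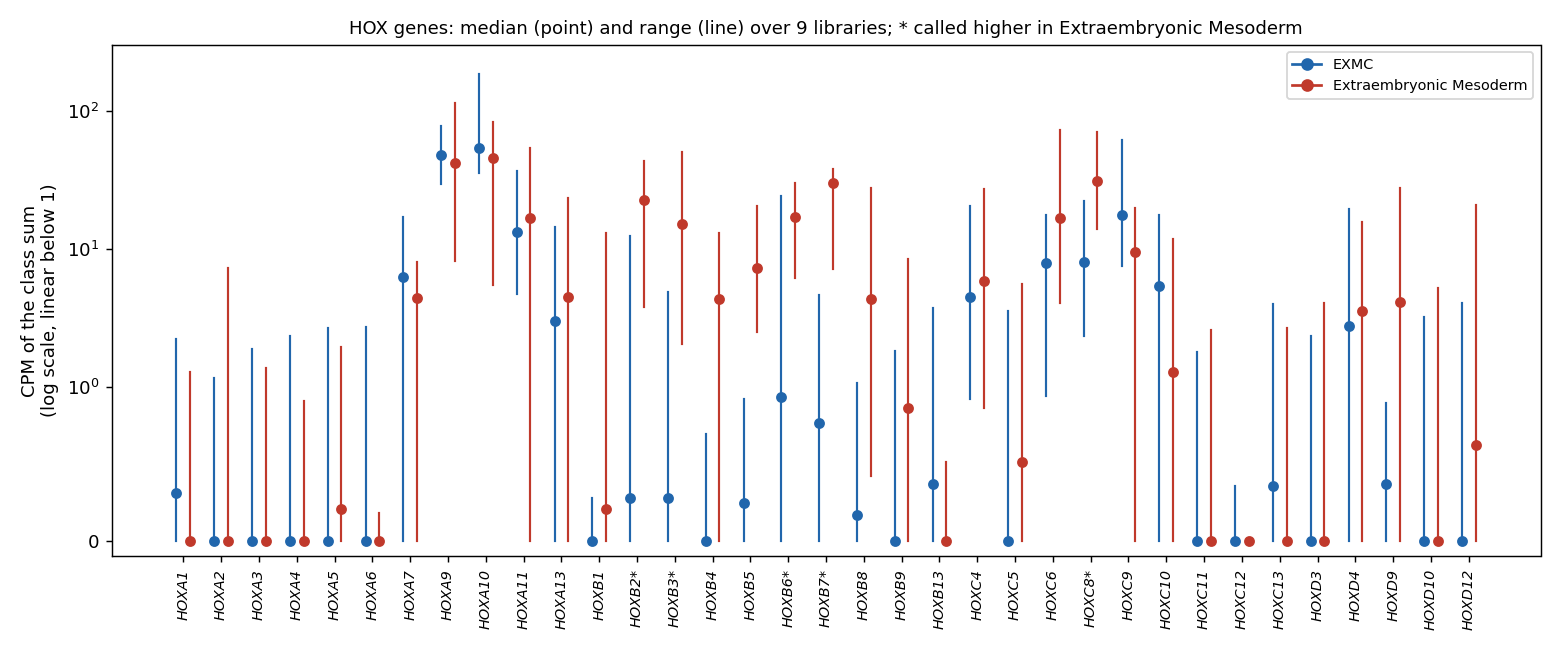
Median (point) and range (line) of CPM over the 9 libraries for the 35 HOX genes with a count, EXMC in blue and ExM in red, on a log scale that is linear below 1. HOXB2 to HOXB9 stand higher in ExM by their medians, while the ranges of HOXA9 to HOXA11 overlap widely.

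Guidance cues, secreted and surface proteins that steer migrating cells and axons, had 4 of 10 tested members higher in ExM, 1 (the netrin receptor gene UNC5B, log2 -0.86) higher in EXMC and a median of 1.13. Over all genes tested the shares were 3.11% in ExM and 4.38% in EXMC. SLIT2, a repulsive ligand of ROBO receptors, measured 0.256 to 43.3 CPM (median 6.06) in EXMC and 44.3 to 194 CPM (median 103) in ExM (log2 3.87 ± 0.48, adjusted p = 6.02e-05). SLIT3 measured 0 to 17.3 CPM (median 7.64) against 33.4 to 186 CPM (median 57.5), with log2 3.22 ± 0.42 and adjusted p = 6.36e-05. Neither ligand overlapped, while the receptors ROBO1 and ROBO2 did not pass (log2 1.38 and 0.88). EPHA7, an ephrin receptor, measured 0 to 3.23 CPM in EXMC, where 4 libraries had none, and 0.457 to 52.7 CPM in ExM (log2 4.89 ± 0.76, adjusted p = 0.000392). EFNB2, an ephrin ligand, was the other member called in ExM (log2 1.74 ± 0.45, adjusted p = 0.0389), a call lost without library 25, 34, 36 or 41 (0.0575 to 0.0883).

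Of 11 tested members of the vascular growth factor pathways, 5 were higher in ExM (3.11% over all genes tested) and none was higher in EXMC (4.38%). Their median was 0.45. NRP2, a co-receptor of VEGF and semaphorins, measured 12.6 to 108 CPM (median 67.9) in EXMC and 236 to 430 CPM (median 329) in ExM (log2 2.36 ± 0.22, adjusted p = 3.11e-06), without overlap. Its relative NRP1 measured 59.7 to 192 CPM against 143 to 399 CPM (log2 1.39 ± 0.16, adjusted p = 1.62e-05). ANGPT1, the agonist of the endothelial receptor TIE2, measured 6.23 to 33.6 CPM (median 11.9) against 32.8 to 237 CPM (median 91.8), with log2 2.49 ± 0.35 and adjusted p = 0.00015.

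ANGPT2, the context-dependent antagonist, was called at the margin (log2 3.18 ± 0.87, adjusted p = 0.0399), lost without library 18, 19, 23, 25, 35 or 36 (0.0607 to 0.107), and the VEGF receptor FLT1 was the fifth (log2 1.05). In the pooled cells of these libraries ANGPT2 stood at 770 CPM in syncytiotrophoblast, against 62.6 CPM in ExM and 5.39 CPM in EXMC. The ligands VEGFA, VEGFB and VEGFC and the receptors KDR, PDGFRA and PDGFRB did not pass. The 11 endothelial markers summed to 222 to 469 CPM in EXMC and 228 to 975 CPM in ExM. Their sum was higher in ExM in 7 of 9 libraries. It had a median of 909 CPM in trophoblast cells, against 289 CPM in EXMC and 324 CPM in ExM, so it is not particular to endothelium here. Of the 5 endothelial markers tested, TEK, which encodes TIE2, was called higher in ExM (log2 0.91, adjusted p = 0.0155) and PECAM1 was not (log2 0.12, adjusted p = 0.947). The part of endothelial or trophoblast transcripts in the vascular differences was not tested.

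Glycolysis and hypoxia genes were higher in ExM in 6 of 11 tested members (3.11% over all genes tested) and higher in EXMC in none (4.38%). Their median was 0.99. SLC2A1, the glucose transporter GLUT1, measured 107 to 467 CPM (median 222) in EXMC and 605 to 2654 CPM (median 1255) in ExM, with no overlap (log2 2.53 ± 0.30, adjusted p = 0.000338). The glycolytic enzyme gene ENO1 measured 887 to 2671 CPM against 1865 to 3521 CPM (log2 0.99 ± 0.11, adjusted p = 1.46e-05), and HK2, hexokinase 2, 0.628 to 46.1 CPM against 25.1 to 113 CPM (log2 2.27 ± 0.41, adjusted p = 0.00131). PGK1 (log2 0.84), BNIP3 (log2 0.80) and PDK1 (log2 1.54) were also called, PDK1 with a call lost without library 18, 19, 25, 35 or 41 (0.0527 to 0.0872). The other tested members, VEGFA, ADM, CA9, NDRG1 and P4HA1, did not pass, with log2 from -0.44 (VEGFA) to 1.78 (CA9).

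Of 10 tested genes of the retinoic acid pathway, edgeR called 3 higher in ExM (3.11% over all genes tested) and none higher in EXMC (4.38%). DESeq2 and limma-voom, which called more genes in the whole contrast as well, each called 4 higher in ExM and 1 higher in EXMC. CRABP2, which carries retinoic acid to its nuclear receptors, measured 19.5 to 584 CPM (median 184) in EXMC and 603 to 2265 CPM (median 935) in ExM (log2 2.61 ± 0.54, adjusted p = 0.0187). The classes did not overlap in CRABP2. The retinol uptake receptor STRA6 was also called (log2 0.83 ± 0.20, adjusted p = 0.0113), and the receptors RARA, RARB and RARG did not pass. The STRA6 call was lost with sums per embryo, with at least 20 cells of each class and without the E20 libraries.

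The BMP ligand genes BMP2 and BMP5 were higher in EXMC. BMP2 measured 276 to 512 CPM (median 467) in EXMC and 55.2 to 292 CPM (median 164) in ExM (log2 -1.51 ± 0.16, adjusted p = 8.93e-06), and BMP5 326 to 530 CPM (median 411) against 138 to 345 CPM (median 204), with log2 -1.08 ± 0.12 and adjusted p = 1.80e-05. Both were lower in ExM in all 9 libraries with a narrow overlap. The target gene ID2 was higher in ExM (8.19 to 85.0 CPM against 15.1 to 570 CPM, log2 1.48 ± 0.31, adjusted p = 0.00477), and 12 of the 15 tested members did not pass, BMP4 (log2 0.25) and the pseudoreceptor BAMBI (log2 -0.09) among them. In the TGF-beta pathway TGFB2 was higher in ExM (log2 1.48 ± 0.30, adjusted p = 0.0037) and TGFB3 higher in EXMC (log2 -2.36 ± 0.49, adjusted p = 0.0048), with 10 of 12 not passing. For both pathways the share called over all genes tested was 7.49% in either direction.

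Of 19 tested WNT pathway genes, the secreted antagonists FRZB and DKK1 were higher in EXMC, SFRP2 and the receptor ROR1 were higher in ExM and 15 did not pass. Over all genes tested, 7.49% were called in either direction. FRZB measured 1148 to 2132 CPM (median 1649) in EXMC and 94.7 to 678 CPM (median 567.6) in ExM, without overlap (log2 -1.84 ± 0.21, adjusted p = 4.43e-05). SFRP2, of the same family of secreted antagonists, measured 0 to 21.4 CPM (median 0.618) against 2.73 to 223 CPM (median 29.4), with log2 4.68 ± 0.93, adjusted p = 0.00598 and 8 of 9 libraries higher in ExM. Without library 41 its log2 difference was 5.29 (adjusted p = 0.000491). The SFRP2 call was lost with sums per embryo and without the E21 libraries. ROR1, tested in 21 alternatives, lost its call with sums per embryo and with at least 20 cells of each class.

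Insulin-like growth factor genes had 5 of 10 tested members higher in EXMC (4.38% over all genes tested), 1 higher in ExM (3.11%) and a median of -0.80. IGFBP3, the most abundant binding protein, measured 5384 to 11238 CPM (median 6358) in EXMC and 2528 to 6092 CPM (median 4482) in ExM (log2 -0.81 ± 0.10, adjusted p = 5.16e-05). IGFBP5 measured 202 to 1110 CPM against 105 to 288 CPM (log2 -1.64 ± 0.18, adjusted p = 1.59e-05). IGFBP6, IGF2R and IGFBP7 were on the same side, IGFBP7 with an adjusted p of 0.0477 that rose to between 0.0544 and 0.131 without library 18, 19, 24, 25, 35, 36 or 41. IGFBP4 was higher in ExM (log2 1.12 ± 0.26, adjusted p = 0.0106). IGF2 was not analysed here.

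Of 9 imprinted genes tested, MEST, PLAGL1 and DLK1 were higher in EXMC and none was higher in ExM. MEST, an imprinted gene active in mesoderm, measured 1091 to 2230 CPM (median 1553) against 320 to 1272 CPM (median 786), with log2 -1.14 ± 0.12 and adjusted p = 5.48e-06. DLK1, a paternally expressed ligand of progenitors, was called (log2 -1.40 ± 0.35, adjusted p = 0.0389), a call lost without library 18, 23, 24, 25 or 41 (0.0528 to 0.0878). In the remaining lists no member of the FGF, hedgehog or NOTCH pathways, of 11 proliferation genes or of 8 immediate early and heat shock genes was called by edgeR, which in lists this short is near the 7.49% of all genes tested. At unadjusted p under 0.05 the test passed 3 of 6 FGF, 2 of 7 NOTCH, 0 of 3 hedgehog, 0 of 11 proliferation and 4 of 8 immediate early and heat shock genes. Over all genes it passed 1762 of 9465. DESeq2 called 1 FGF gene higher in EXMC, and limma-voom 1 FGF and 1 NOTCH gene. CXCL12, a chemokine that attracts blood progenitors, was higher in ExM (0.309 to 18.2 CPM against 29.3 to 288 CPM, no overlap, log2 3.52 ± 0.68, adjusted p = 0.00791), and the epithelial adhesion gene EPCAM as well (log2 3.18 ± 0.53, adjusted p = 0.000639, 8 of 9 libraries). Of 11 tested adhesion and transition genes, EPCAM and CDH2 were higher in ExM, SNAI2 was higher in EXMC and 8 did not pass, with a median of 0.13. The CDH2 call (log2 1.08 ± 0.31, adjusted p = 0.0388) was lost on leaving out any library but 34 or 36 (0.0588 to 0.113). Of 6 tested allantois and caudal genes, VCAM1 was the one called.

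Some other cell types left few transcripts in either class. Neural ectoderm markers summed to at most 1.95 CPM and were at 0 in the median library of both classes, and paraxial mesoderm and blood markers reached at most 6.85 and 24.2 CPM. Yolk sac endoderm markers summed to 5.46 to 246 CPM in EXMC and 19.1 to 1323 CPM in ExM, higher in ExM in 8 of 9 libraries. Amnion markers summed to 3.51 to 42.4 CPM in EXMC and 10.2 to 124 CPM (median 44.6) in ExM, also higher in 8 of 9. Their median was 152 CPM in trophoblast cells. Of the 7 amnion markers, 2 were tested. Neither was called by edgeR, and DESeq2 and limma-voom each called 1 higher in ExM. Primitive streak markers summed to 108 to 299 CPM in EXMC and 141 to 606 CPM in ExM, higher in ExM in 7 of 9. Of the 8 streak markers, 1 passed the filter on low counts, so the sum does not describe the list as a whole. That gene was not called by edgeR (log2 0.56), while DESeq2 and limma-voom called it higher in ExM. The part of these sums in the class differences was not tested.

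Within each class the authors' fine clusters differed, and the values that follow are levels of pooled cells, given as a description since the clusters were built on these genes. The 155 ExM cells came from cluster 5 (81 cells), cluster 8 (37) and cluster 22 (37, all from E20). Cluster 8 had the highest levels of AQP1 (381 CPM, against 41.4 in cluster 5 and 127 in cluster 22), PODXL (346, against 65.2 and 27.9 CPM), TNNT2 (259, against 52.5 and 58.8 CPM) and HAND1 (332, against 139 and 204 CPM). Cluster 22 had the highest POSTN (3429 CPM, against 1891 and 1410.2 CPM), and cluster 5 kept the most of the EXMC genes ASPN (208, against 17.5 and 15.6 CPM) and DKK1 (153, against 33.1 and 26.1 CPM).

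In EXMC, cluster 1 was the largest (145 of 323 cells) and had the highest ASPN (902 CPM), LAMA2 (802 CPM) and FRZB (2114 CPM) of its 7 clusters. Cluster 10 (64 cells) had the highest SPON2, at 857 CPM against 289 CPM in cluster 1. EXMC cluster 6, with 12 cells of which 11 were from E21, stood nearest to ExM in several genes, with CRABP2 at 1373 CPM, HAND1 at 172 CPM, TNNT2 at 122 CPM and HOXB2 at 26.2 CPM, and LAMA2 at 153 CPM. Low levels of ExM genes in the EXMC sums thus came unevenly from its clusters.

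**Figure D4:**
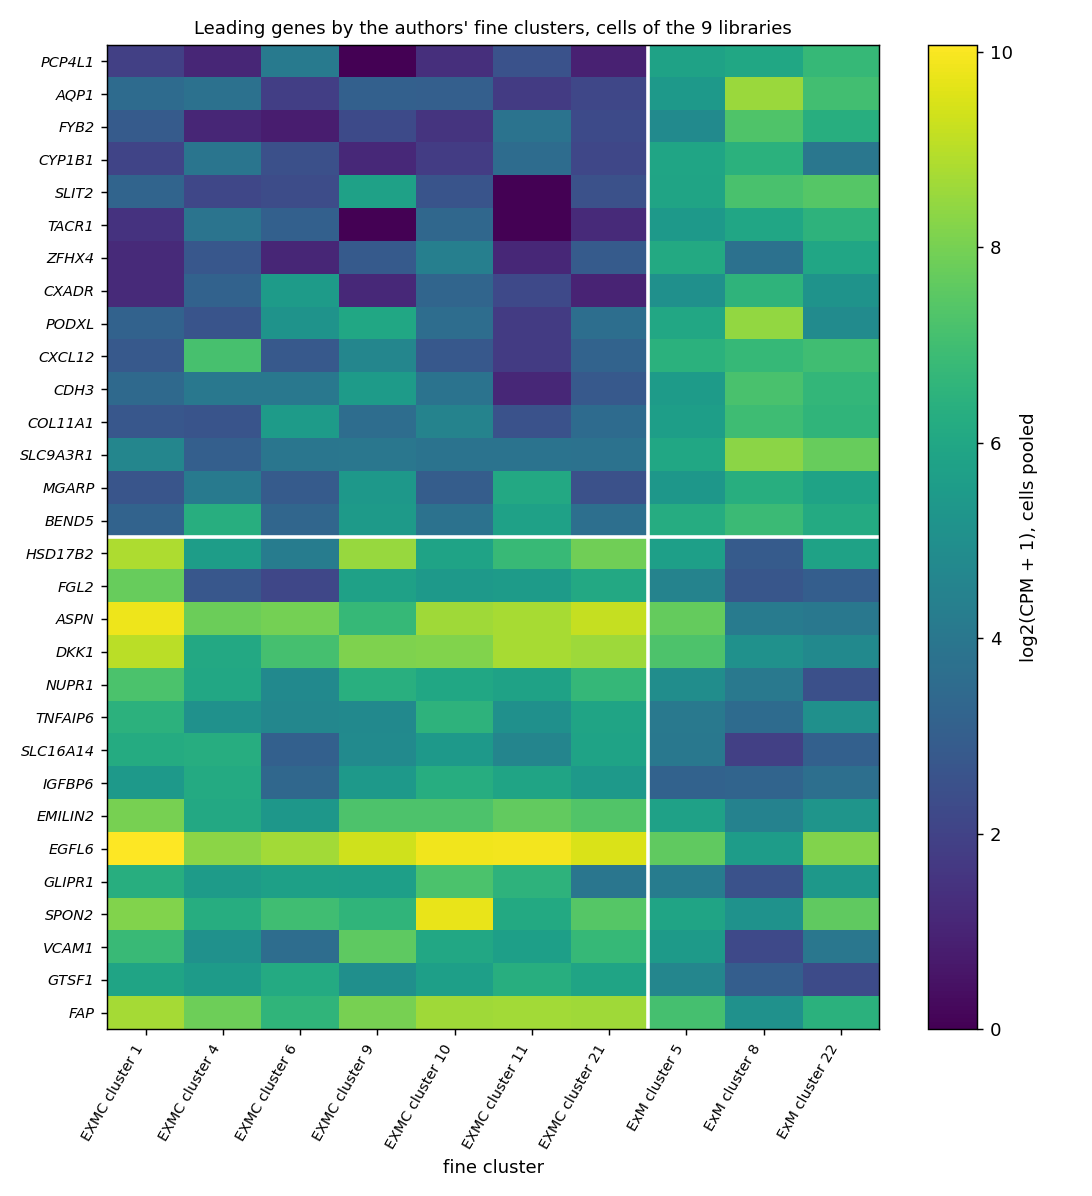
Levels, log2(CPM + 1) of pooled cells of the 9 libraries, of the 15 leading genes of each side (rows, ExM genes above the white line) in 7 EXMC and 3 ExM fine clusters (columns). ExM cluster 5 is the ExM cluster with the most ASPN and DKK1, and ExM cluster 8 has the most AQP1 and PODXL.

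Many genes higher in ExM than in EXMC were not at their peak in ExM. Over the 12 annotated classes, pooled in the same libraries, ExM was the class with the highest level for 46 of the 294 genes called on that side (15.6%), PS and derivative, with 1 cell, for as many, and embryonic Mesoderm for 31 (10.5%). For HAND1 the pooled level was 206 CPM in ExM and 620 CPM in Mesoderm (30 cells), for CDH3 87.2 and 248 CPM, and for HOXB7 27.2 and 58.7 CPM. On the other side EXMC itself was highest for 196 of 415 genes (47.2%). Over all genes tested the shares were 4.73% for ExM, 12.1% for PS and derivative, 4.53% for Mesoderm and 7.06% for EXMC. The 4 classes with only 1 or 2 cells in these libraries held the peak of 148 of the 294 and 108 of the 415 genes. Over all genes tested it was 5056 of 9465, a share near that on the ExM side and above that on the EXMC side. Peaks in these 4 classes rest on 1 or 2 cells each.

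Whether the class difference itself changed between embryos was tested for E20 (3 libraries) against E21 (5 libraries), while E18, with 1 library, was left out. Of 9514 genes tested, 42 were called for the class by day term (0.441%, edgeR quasi-likelihood test), 28 with a difference lying further toward ExM at E20 and 14 at E21, and 31 of the 42 had opposite signs at the 2 days. At unadjusted p under 0.05 there were 1199. Day, embryo and sex cannot be told apart here, and the ExM cells of E20 were mostly cluster 22 (37 of 50) while those of E21 were clusters 5 (64) and 8 (30). The 6 leading genes all had the difference further toward ExM at E20.

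TNNT1, slow skeletal troponin T, measured 1.56, 4.39 and 7.42 CPM in the EXMC of the 3 E20 libraries and 86.8 to 113 CPM in their ExM. At E21 it measured 114 to 139 CPM in EXMC and 119 to 303 CPM in ExM, and the log2 class difference at E21 minus that at E20 was -3.96 ± 0.45 (adjusted p = 0.00153). In each class the levels at E20 lay below all those at E21, with the wider gap in EXMC. In the E18 library TNNT1 was at 6.15 CPM in EXMC and 89.98 CPM in ExM, the same order as at E20.

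FBLN1, a matrix glycoprotein of elastic fibres and basement membranes, measured 135 to 196 CPM in EXMC and 380 to 493.5 CPM in ExM at E20. At E21 the order was reversed, with 914 to 1321 CPM in EXMC and 474 to 977 CPM in ExM (log2 -2.21 ± 0.29 for E21 minus E20, adjusted p = 0.0026). OLFML3, a secreted matrix scaffold protein, had the same pattern, with 111 to 322 CPM against 357 to 465 CPM at E20 and 420 to 549 CPM against 154 to 312 CPM at E21 (log2 -2.29 ± 0.32, adjusted p = 0.00294). In the E18 library both genes were higher in EXMC, FBLN1 at 664 against 175 CPM and OLFML3 at 170 against 95.4 CPM.

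The WNT antagonist SFRP1 measured 0 to 8.97 CPM in EXMC and 27.4 to 174 CPM in ExM at E20, and 68.6 to 104 CPM and 77.1 to 159 CPM at E21 (log2 -5.41 ± 0.74, adjusted p = 0.00294). EFNB2, known from arterial endothelium, measured 10.0 to 29.2 CPM in EXMC and 174 to 259 CPM in ExM at E20, and 80.4 to 184 CPM and 181 to 280 CPM at E21 (log2 -2.81 ± 0.37, adjusted p = 0.0026). RELN, the secreted glycoprotein reelin, measured 27.5 to 65.1 CPM against 171 to 236 CPM at E20 and 105.7 to 147 CPM against 31.6 to 140 CPM at E21 (log2 -3.00 ± 0.43, adjusted p = 0.00406).

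**Figure D5:**
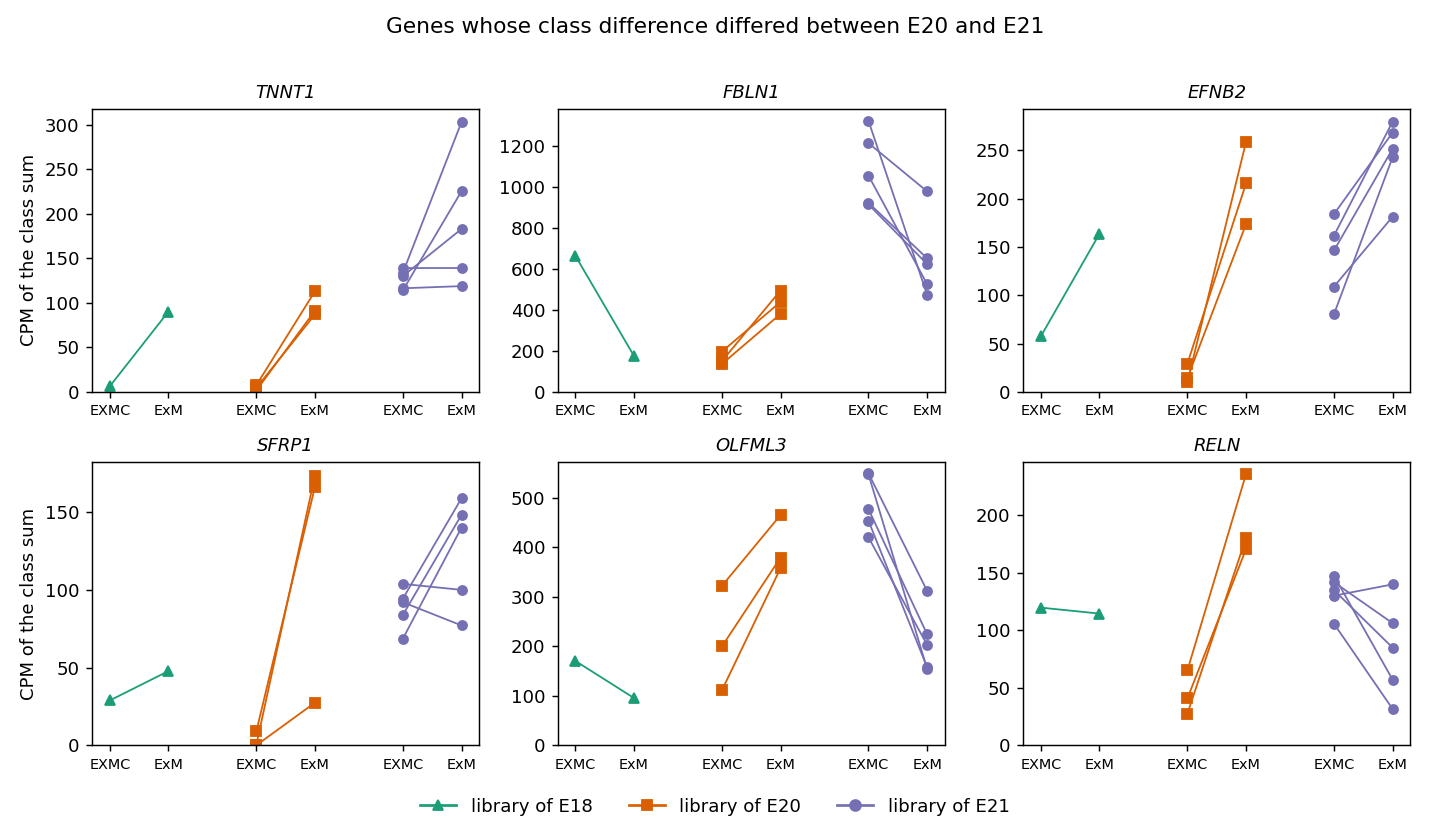
Levels (CPM of the class sum) of the 6 leading genes of the class by day comparison, each line joining EXMC and ExM of 1 library, for E18 (1 library), E20 (3) and E21 (5). All 6 genes are lower in the EXMC of every E20 library than in that of every E21 library.

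The number of class by day calls moved with single libraries, from 13 to 104: it was 15 without library 18, 13 without 19, 15 without 23, 17 without 24, 15 without 25, 76 without 34 and 104 without 35. Of 11 proliferation genes tested for this term, MKI67, an antigen of cycling cells, and the replication helicase gene MCM5 were called, with the difference further toward ExM at E21. MKI67 measured 42.97 to 143 CPM in EXMC and 2.28 to 27.3 CPM in ExM at E20, and 17.7 to 41.03 CPM and 35.8 to 122 CPM at E21 (log2 3.68 ± 0.68, adjusted p = 0.0331). The median of the 11 was -1.39 at E20 and 1.21 at E21, against -0.01 and -0.03 over all genes tested.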

How the data were processed

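Single-cell RNA was deposited as a table of raw counts per gene and cell, with the authors' annotation of each cell (class, fine cluster at resolution 2, embryo, sex). Per the submitters' processing notes, the authors used cutadapt 1.15, STAR 2.6.0a and HTSeq 0.10.0; not given in the sources used here are the genome build, the strand setting, how doublets were treated and whether a count is a read or a molecule. No doublet caller was run. The count table held 21834 genes and 3682 cells, with no duplicated cell.

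Counts were summed per library and class. The class contrast was fitted in R 4.3.3 with edgeR 4.0.16: robust quasi-likelihood F test, library as a block, TMM factors, genes kept by filterByExpr, Benjamini-Hochberg adjustment over all genes tested. CPM were computed from totals without TMM. The library pairs the classes, since both classes of 1 library come from the same embryo and preparation. Deviations of the classes from their means correlated within each of the 9 libraries (r = 0.134 to 0.309), though for libraries 24 and 36 the correlation with another library was higher (0.180 and 0.160). The class by day term used the same test. Depth was compared with exact paired permutation tests. Nothing says that libraries of 1 embryo are separate biological samples, and the p-values count them as independent.

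On simulated counts made from these sums, the class contrast found 53% of changes of log2 1 and 92% of log2 2 (100 genes each among 9219), and the class by day term 1% and 31% (9210 genes). The changed genes were drawn only from the more abundant ones. Gene means were the same in all libraries apart from the set changes, with no library or embryo effect. The rates therefore do not cover genes at low counts or libraries that share an embryo.

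Named genes are the 15 with the largest difference in each direction among called genes with a symbol, at least 50 CPM in the higher class and the same direction in all libraries, up to 4 called members and the most abundant members of each list, up to 8 called factors in each direction, and the 6 class by day genes of at least 50 CPM with the smallest p. Other genes named were chosen after their values were seen. The contrast, the lists and the members were chosen with earlier results of these data known. Alternatives changed scaling, filter, block, cell minimum, tool, weighting of cells and the libraries used. The removal of the cell with the highest total was added after seeing the data. The pairing table with DNA libraries was not used. Values of some single list members are not reported here.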

Additional observations from a re-analysis of the deposited data

Results flagged for a closer look

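Of 68 groups of libraries checked, 6 held a library far from the others, where chance flags about 1 in 20. In ExM, library 24 had the lowest median total per cell (56496 counts) and library 18 the highest median of genes detected (5658.5). SLC9A3R1 was lowest in the ExM of library 23 (71.0 CPM), VCAM1 highest in the EXMC of library 35 (185 CPM), GTSF1 lowest in the EXMC of library 34 (15.98 CPM) and FAP lowest in the ExM of library 41, the library of E18 (10.2 CPM). The calls of SLC9A3R1, VCAM1, GTSF1 and FAP held on leaving out each library in turn.

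The class difference differed between E20 and E21 by the edgeR quasi-likelihood test for the 6 genes named for that comparison. The difference at E21 minus that at E20 was -3.96 for TNNT1, -2.21 for FBLN1, -2.81 for EFNB2, -5.41 for SFRP1, -2.29 for OLFML3 and -3.00 for RELN on the log2 scale. These 6 held on leaving out each of the 8 libraries, and with at least 5 cells per class TNNT1, EFNB2, SFRP1 and RELN lost the call.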

How the results depend on the processing

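Against 294 genes higher in ExM and 415 in EXMC, the alternatives gave 205 and 206 with no replicate block, 191 and 201 with at least 20 cells, 522 and 634 with DESeq2, 445 and 507 with limma-voom, 70 and 85 with sums per embryo, 456 and 473 with the mean of per-cell CPM, 448 and 570 without E20, and 65 and 61 without E21. Leaving out each library gave 226 to 319 and 300 to 469. The 42 class by day calls became 299 with no filter on low counts, 74 with no replicate block, 298 with DESeq2 and 13 to 104 on leaving out each library. The cause of these shifts was not tested, but sums per embryo and the runs without E21 or with at least 20 cells use fewer samples. Without E20 the RELN difference turned from 0.18 to -0.75 (adjusted p = 0.0422). The median total per cell kept its side of the threshold throughout, with log2 ratios from -0.12 to 0.06, and genes per cell with differences from -229 to -50.4 on leaving out each library.

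Of the 96 called genes named by the rule, 26 were called in all 26 alternatives, 13 lost the call on leaving out 1 library, 37 with sums per embryo, 53 without E21 and 21 with no replicate block. Depth was lowest in the ExM sums of libraries 23 and 41, and genes at a few CPM there rest on few counts.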
